A study of Homo sapiens with 24 samples.

Results

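The potassium channel genes were examined in HCC1500, MDA-MB-175 and ZR-75-30, 3 established human lines from breast cancers that express the estrogen receptor, grown at low or high glucose. The genes were chosen by name and by their measured levels. A gene was taken if its symbol was KCN followed by 1 letter and digits and if its mean reached 5 in at least 1 of the 6 groups of cultures. Of the 42 genes with such a symbol among the 18889 genes measured, 33 were taken and 9 stayed under the threshold. Being expressed is therefore a property of the choice and not a result. Just inside the threshold were KCNE2, with a highest group mean of 5.37 at low glucose in MDA-MB-175 (8.03, 2.68, 5.69 and 5.09 in the 4 cultures), and KCNC4, with 6.44 at low glucose in HCC1500 (5.32, 6.35, 8.05 and 6.03). Just outside were KCNJ8, with 4.77 at low glucose in HCC1500 (2.66, 6.67, 4.6 and 5.17), and KCNJ4, with 3.91 at high glucose in ZR-75-30 (3.65, 2.7, 7.22 and 2.06).

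Each line had 4 cultures with 5 mM glucose, the control condition, and 4 with 25 mM glucose, which modelled hyperglycemia, and RNA was taken after 48 hours. The cells had been conditioned in low glucose first, and both media were free of serum. Each is an established line grown as a monoculture on plastic, and no mannitol-adjusted culture is named among these samples, so that glucose and osmolarity cannot be told apart. The labels do not say that cultures of a group were grown separately, so the p-values measure only the spread between these samples. Values are normalized read counts as deposited, each a whole number of reads times 1 factor per culture. Log2 changes are high minus low glucose on log2(value + 1), which understates changes of weakly expressed genes, and a gene was called at a limma adjusted p under 0.05.

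Potassium channels let potassium ions leave or enter the cell along their electrochemical gradient and so set the membrane voltage, the driving force for calcium entry and cell volume. The pore-forming subunits fall into voltage-gated channels with 6 membrane spans, inward rectifiers (KCNJ), two-pore background channels (KCNK) and channels opened by calcium (KCNN), while the single-span KCNE proteins are accessory subunits that tune the others. In secretory and epithelial cells an inward rectifier pore joined to a sulfonylurea receptor closes when ATP rises, which is the link between glucose and insulin release in pancreatic beta cells. Two-pore channels carry resting potassium current, and calcium-activated channels couple that current to calcium signals.

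The depth ran from 9140024 to 17998819 recovered reads per culture, and 3 reads, used as the detection floor, corresponded to values between 0.95 and 2.29. In HCC1500 the high glucose cultures (9423472 to 12140912 reads) were all shallower than the low glucose cultures (13190982 to 17998819 reads), so depth and glucose cannot be told apart in this line. One culture, HCC1500 high glucose replicate 3, stood apart. Its mean Pearson correlation with the other 3 high glucose cultures across 12816 genes was 0.914, against 0.965 to 0.966 for the same measure of those 3. In it 25.5% of genes were more than 1 log2 unit away from the average of the remaining cultures, against 2.05% to 2.28% in them. The glucose changes of HCC1500 are therefore given with and without it, while levels use all 4 cultures unless stated. The luminal markers ESR1, GATA3, KRT8 and EPCAM were expressed in all 3 lines. The luminal marker CDH1 was far lower in ZR-75-30, with a low glucose mean of 55.6, against 6499 in MDA-MB-175 and 8223 in HCC1500. Of 8 luminal markers, 1 was lower and 0 higher at high glucose in HCC1500, 4 and 1 in MDA-MB-175, and 5 and 1 in ZR-75-30. Without replicate 3 all 8 were called in HCC1500, 5 lower and 3 higher. Of all genes with a mean of at least 5 in the line, 22.8% were called in HCC1500 (65.7% without replicate 3). This share was 29.9% in MDA-MB-175 and 53.5% in ZR-75-30. Of 5 leukocyte markers 2 were in the table, and their sum was at most 12.5 in MDA-MB-175, while it moved from between 5.54 and 6.82 to between 33.6 and 43.9 in ZR-75-30 and from between 1.72 and 3.8 to between 10 and 28.2 (10 to 18.9 without replicate 3) in HCC1500. The 5 fibroblast markers summed to between 78.6 and 295, and 3 endothelial markers to at most 10.7 in ZR-75-30 and 1.53 in HCC1500 but to between 75.3 and 95.3 in MDA-MB-175. The 3 myoepithelial markers found moved from between 12.2 and 17.1 to between 32.3 and 44.6 in ZR-75-30 and from between 8.44 and 10.6 to between 13.9 and 16.3 in HCC1500. Of single markers, ACTA2 rose in HCC1500 by 1.09 (adjusted p = 0.00371, without replicate 3 by 1.03 with 0.00108) and in ZR-75-30 by 1.90 (adjusted p = 8.0e-06), and the fibroblast marker LUM rose in MDA-MB-175 from a mean of 21.9 to 58.7 (adjusted p = 4.4e-06) and in HCC1500 from 29.5 to 47.1 (adjusted p = 0.00831, without replicate 3 5.7e-04). Of the other fibroblast markers, COL1A2 fell in MDA-MB-175 from 18.8 to 10.7 (limma adjusted p = 0.00861). COL1A1 went from 241 to 193 in HCC1500 and was called only without replicate 3 (adjusted p = 2.2e-05). MYLK, listed with ACTA2, went from 3.32 to 1.63 in HCC1500, under a mean of 5. In ZR-75-30 it went from 5.28 to 9.4 and was not called (adjusted p = 0.0559). Whether any of these markers moved with the channel genes was not tested.

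The lines were first compared for which channel genes they expressed. A mean of 5 was reached in a low or high glucose group by 24 of the 33 genes in MDA-MB-175, by 14 in ZR-75-30 and by 27 in HCC1500. Of the 33 genes, 8 reached it in all 3 lines, 16 in 2 lines and 9 in 1 line. By family, 18 of the genes were voltage-gated, 5 were inward rectifiers, 6 were two-pore channels, 2 were calcium-activated and 2 were single-span accessory subunits. The 18 voltage-gated genes include KCNF1, KCNG1, KCNG3 and KCNS3, modifier subunits that form channels only together with other voltage-gated subunits. The genes were spread over 13 chromosomes, with 7 on chromosome 2, 6 on chromosome 1 and 4 on chromosome 19.

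**Figure D1:**
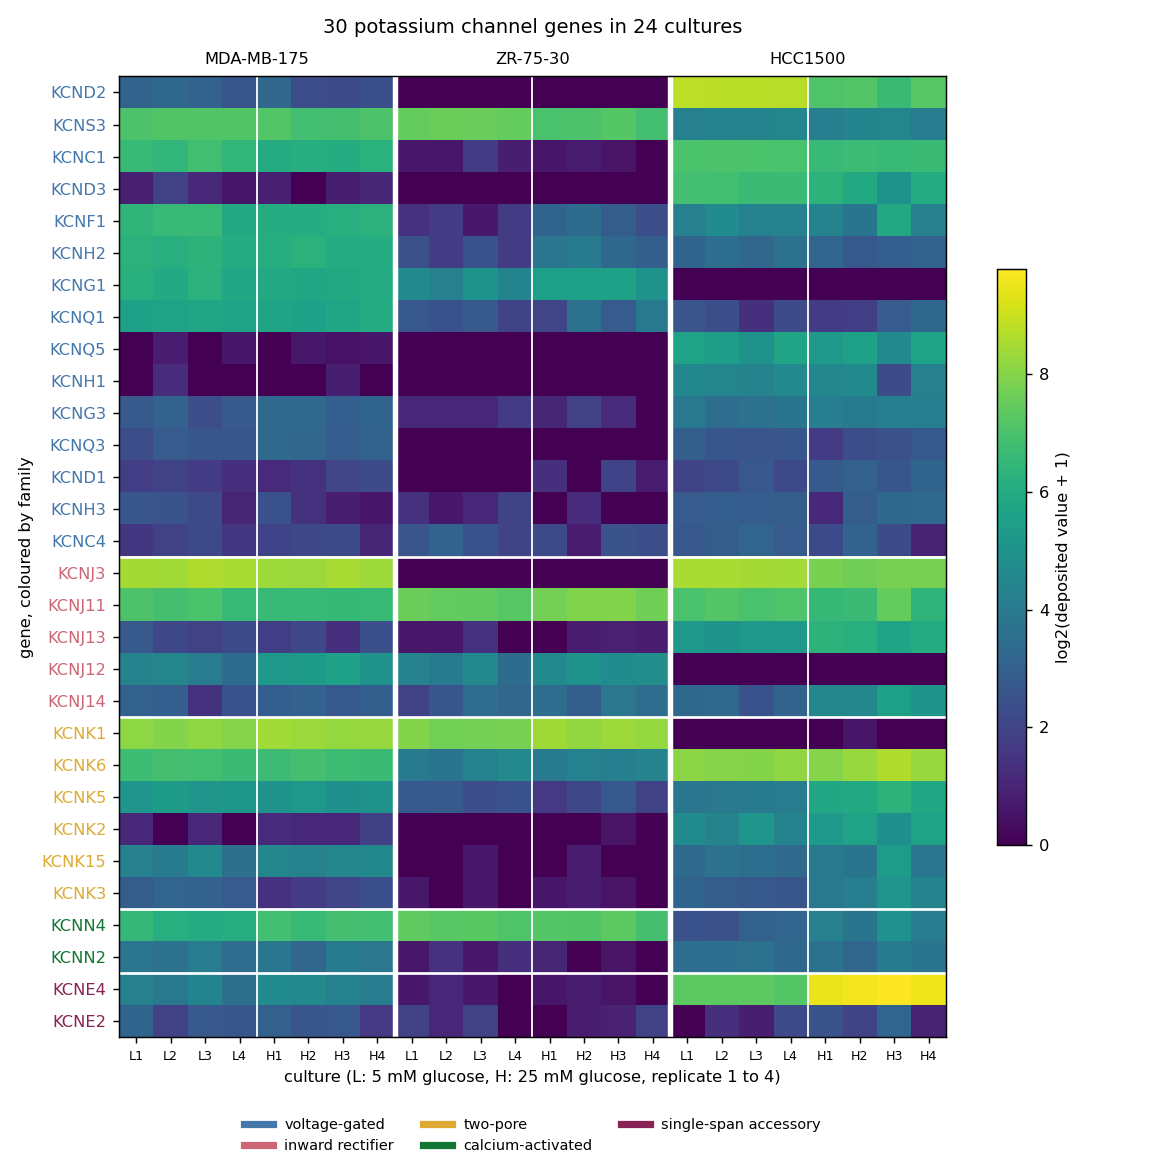
The values of 30 of the 33 potassium channel genes (rows, coloured by family) in each of the 24 cultures (columns, 4 low and 4 high glucose cultures per line), as log2(value + 1). KCND2 and KCNJ3 are at 0 in all ZR-75-30 cultures, KCNG1 and KCNJ12 are at 0 in all HCC1500 cultures, and KCNE4 is brightest in the HCC1500 high glucose cultures.

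To compare levels between genes, the mean value was divided by the length of the gene's annotated exons. This length counts every annotated isoform, so it understates genes with many rare exons. Per kb of exon, KCNK1 (75.8 at low glucose), a two-pore background channel, and KCNJ3 (75.3), the pore of the G protein-gated inward rectifier, were highest in MDA-MB-175, followed by the modifier subunits KCNS3 (43.8) and KCNF1. In ZR-75-30 the 4 highest genes, KCNK1 (63.7), KCNS3 (58.4), KCNN4 (48.8) and KCNJ11 (34.7), made up 88.7% of the summed level per kb of all 33 genes at low glucose. In HCC1500 the order at low glucose was KCNJ3 (74.0), KCND2 (72.8), KCNK6 (43.3) and KCNE4 (42.0), which made up 66.1%. At high glucose the accessory subunit KCNE4 stood first in HCC1500 with 211 per kb, or 43.8% of the sum, ahead of KCNK6 with 51.8 and KCNJ3. Without replicate 3 it stood first with 203 per kb, or 44.4%. The fraction of the sum carried by voltage-gated genes in HCC1500 was 38.1% at low and 15.8% at high glucose (16.1% without replicate 3), and in MDA-MB-175 it was 38.9% and 34.3%. In ZR-75-30 it was 31.7% and 25.1%. The voltage-gated sum itself was 134 per kb at low and 76.2 at high glucose in HCC1500 (73.7 without replicate 3). There the sum of all 33 genes went from 351 to 482 (456 without replicate 3), so the fraction fell by more than the voltage-gated sum alone would give. In MDA-MB-175 the voltage-gated sum was 160 and 142 per kb, and in ZR-75-30 73.5 and 64.5.

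**Figure D2:**
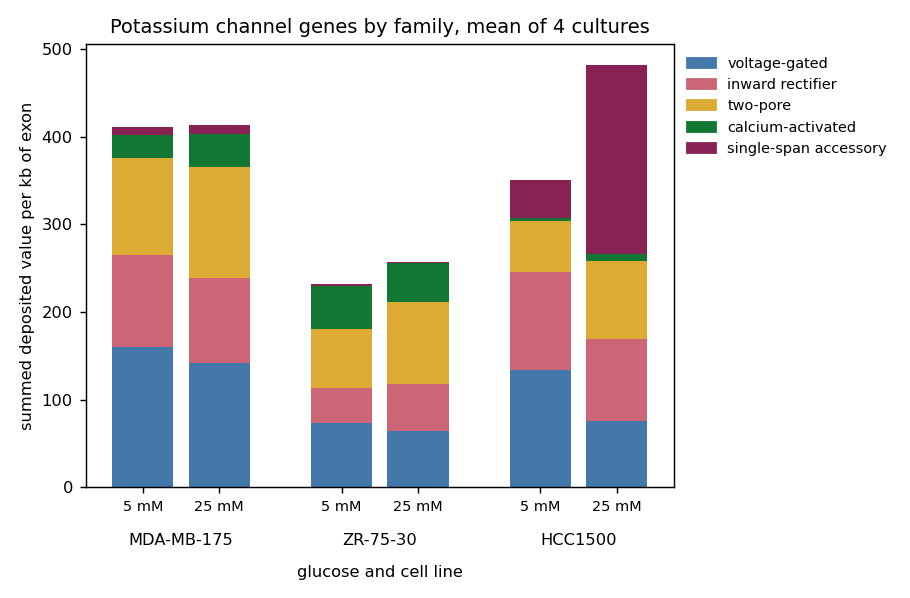
Summed value per kb of exon (vertical axis) of the channel genes of each family, from the means of 4 cultures, at 5 mM and at 25 mM glucose in each line. The accessory subunits fill 12.4% of the bar for HCC1500 at low and 44.6% at high glucose, and at most 2.5% of the bars of the other lines.

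Several genes were at 0 in every culture of a line. KCND2, KCND3, KCNH1, KCNJ3, KCNQ3 and KCNQ5 had no read in any of the 8 ZR-75-30 cultures, and KCNG1 and KCNJ12 had none in HCC1500. Against the highest 3-read value of 2.29 among the ZR-75-30 low glucose cultures, KCND2 was at least 193-fold higher in HCC1500 and KCNJ3 at least 161-fold higher in MDA-MB-175. KCNG1 was at least 52.7-fold higher in MDA-MB-175 than in HCC1500, against a 3-read value of 1.29. KCNK1 had 1 read in all 8 HCC1500 cultures together, against 2069 reads over the 4 low glucose cultures of MDA-MB-175 and 1492 over those of ZR-75-30. At low glucose, 26 of the 27 channel genes with a mean of at least 5 over the 12 cultures differed between lines by an F test, a fraction near the 96.0% of all genes tested with that mean. The exception was KCNJ14, an inward rectifier, whose mean was 7.58 in HCC1500, 5.05 in MDA-MB-175 and 6.63 in ZR-75-30 (adjusted p = 0.354). Genes such as KCND3, KCNH1, KCNJ13, KCNK2 and KCNQ5 passed both thresholds only through HCC1500. For them a difference between lines was built into the choice, and the F test adds nothing to it. Between MDA-MB-175 and HCC1500, KCNJ3 differed by 0.02 on the log2 scale (adjusted p = 0.79), while both lay above the zeros of ZR-75-30.

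The next question was which channel genes changed with glucose within each line. In bulk cultures a change in the number of cells that express a gene and a change in RNA per cell cannot be told apart. Counts are over genes with a mean of at least 5 over the 8 cultures of a line. In MDA-MB-175, 6 of 23 channel genes were called, 3 higher (13.7% of all genes tested) and 3 lower (16.2%), where 29.9% of all genes with that mean were called. In ZR-75-30, 6 of 13 were called, 5 higher (26.4% of all genes) and 1 lower (27.1%), against 53.5% of all genes. HCC1500 had 11 of 26 called, 6 higher (8.17% of all genes) and 5 lower (14.6%), against 22.8% of all genes. Of all genes called in HCC1500, 35.9% were higher, and this became 49.0% with median-of-ratios scaling, 47.3% with edgeR and 51.9% with DESeq2. The median log2 change with all 8 cultures was 0.19 for the channel genes of HCC1500 and -0.06 for all its genes with that mean. These 2 medians were not computed without replicate 3. The median over all genes of HCC1500 was -0.01 with median-of-ratios scaling, 0.01 with edgeR and 0.03 with DESeq2. The median log2 changes of channel genes and of all genes were 0.49 and 0.00 in ZR-75-30, and -0.05 and -0.03 in MDA-MB-175.

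**Figure D3:**
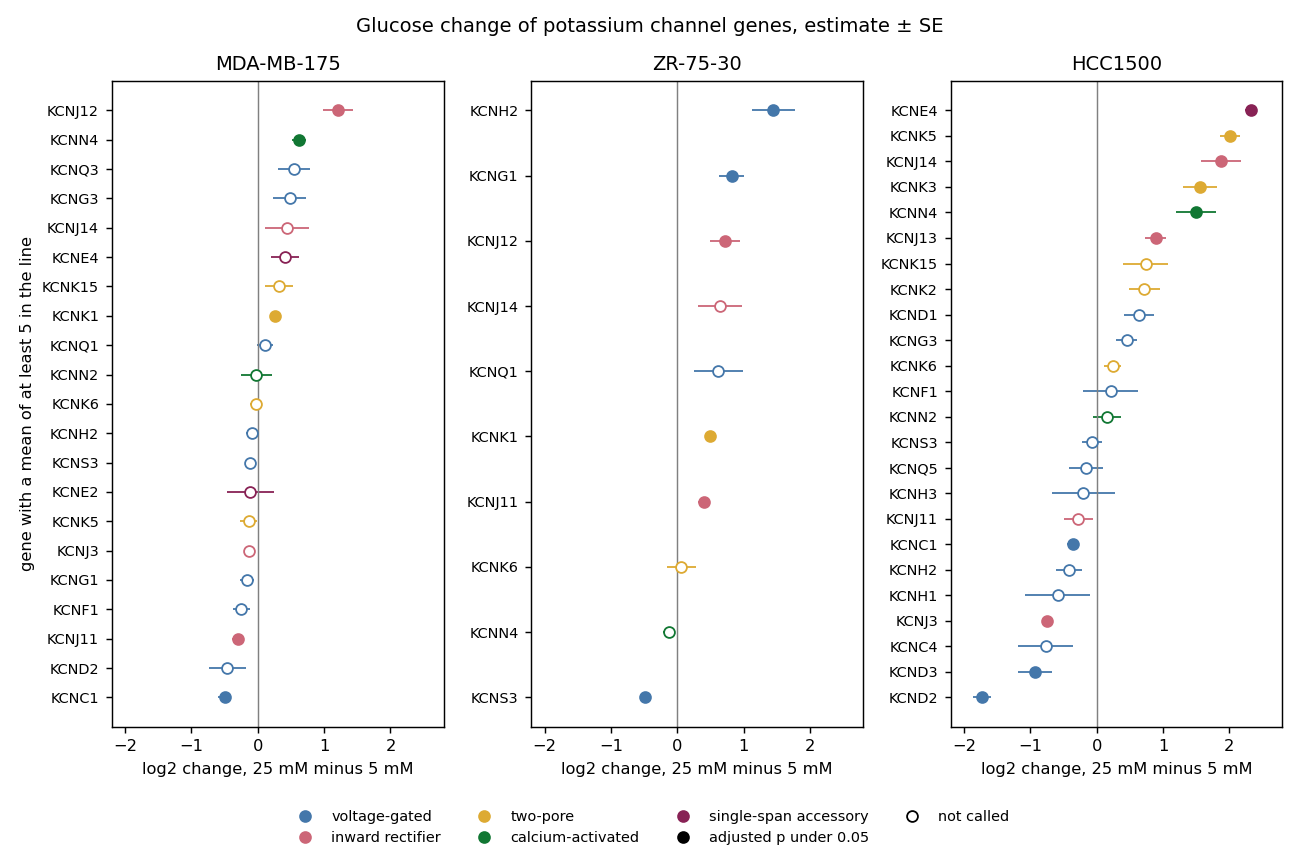
Log2 change at 25 mM minus 5 mM glucose (horizontal axis, limma estimate ± SE) for channel genes with a mean of at least 5 in the line, in 1 panel per line. Filled points are called and open points are not. In HCC1500 the changes run from -1.73 for KCND2 to 2.32 for KCNE4, and in MDA-MB-175 from -0.50 for KCNC1 to 1.21 for KCNJ12.

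In MDA-MB-175 the voltage-gated genes gave 0 calls upward and 2 downward of 11, against 13.7% and 16.2% of all genes. KCNC1 (ENSG00000129159), a fast-deactivating delayed rectifier, had low glucose values of 99.9, 89.1, 112 and 89.5 and high glucose values of 64.5, 68.2, 66.8 and 74.7. All high glucose cultures lay below all low glucose cultures. The change was -0.50 ± 0.10 (SE; adjusted p = 0.00121), and it was not called when all 24 cultures shared 1 estimate of the spread (adjusted p = 0.0974). The modifier KCNS3, among the 4 highest channel genes of the line, had 134, 139, 138 and 138 at low and 143, 117, 118 and 133 at high glucose. These overlapped, and the change of -0.11 was not called (adjusted p = 0.349). KCNF1, next after KCNS3 by level per kb, had 84.7, 96.5, 97.4 and 61 at low and 66.6, 66.5, 69.9 and 78.3 at high glucose. The ranges overlapped, and the change of -0.25 was not called (adjusted p = 0.191).

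The inward rectifiers of MDA-MB-175 gave 1 call in each direction. KCNJ12, a strong inward rectifier, had 20.1, 20.8, 16.5 and 9.66 at low glucose and 38.7, 39.2, 48 and 30.5 at high glucose. The groups did not overlap, and the mean was 2.33-fold higher at high glucose, a log2 change of 1.21 ± 0.22 (adjusted p = 5.9e-04). KCNJ12 has a near-identical copy, KCNJ18, with which its reads may be shared, so its value is uncertain. KCNJ11 (ENSG00000187486) is the pore of the ATP-sensitive potassium channel. It had 131, 120, 129 and 98.7 at low and 95.3, 99.4, 92.5 and 98.3 at high glucose, so that 1 low glucose culture lay within the high glucose range. The change of -0.30 ± 0.09 was called (adjusted p = 0.0254) but was lost without any 1 of 5 single cultures, with adjusted p of at most 0.0787, and in the fit on all 24 samples (adjusted p = 0.268). KCNJ3 had 358, 350, 392 and 378 at low and 327, 316, 363 and 331 at high glucose, with overlap, and its change of -0.14 was not called (adjusted p = 0.0792).

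Of the other families in MDA-MB-175, KCNN4, the intermediate-conductance calcium-activated channel that opens through bound calmodulin, had 90.7, 70.4, 64.9 and 67.7 at low and 116, 98.3, 120 and 115 at high glucose. Every high glucose culture was above every low glucose culture. The change was 0.62 ± 0.11 (adjusted p = 5.1e-04), a 1.53-fold higher mean. KCNK1 had 276, 251, 285 and 257 at low and 349, 322, 299 and 313 at high glucose. These also did not overlap, and the change was 0.26 ± 0.06 (adjusted p = 0.00495), which the fit on all 24 samples did not call (adjusted p = 0.17). The acid-sensitive two-pore channel KCNK3 was under a mean of 5 in the line, with 6.42, 8.04, 7.4 and 6.1 at low and 1.66, 2.27, 3.12 and 4.21 at high glucose, from 4 to 16 reads a culture. KCNE4 had means of 16.0 and 21.3 and KCNE2 of 5.37 and 4.94, and neither was called.

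In ZR-75-30 the calls were 2 higher and 1 lower of 7 voltage-gated genes, 2 higher of 3 inward rectifiers and 1 higher of 2 two-pore genes, with none among calcium-activated genes. Of all genes in this line, 26.4% were called higher and 27.1% lower. KCNH2, the pore of the rapidly activating delayed rectifier of heart muscle, had 4.43, 2.27, 4.56 and 2.29 at low and 13.5, 14.9, 8.92 and 6.85 at high glucose, from 3 to 26 reads a culture. The groups did not overlap. The change was 1.45 ± 0.32 (adjusted p = 9.9e-04), but its level per kb stayed low, at 1.53 at high glucose. With a low glucose mean of 3.39, KCNH2 reached a mean of 5 in this line only through its high glucose mean of 11. Its place among the higher calls therefore supports no direction. KCNG1, a modifier subunit, had 24.4, 18.2, 31.9 and 20.6 at low and 44.8, 45.9, 47.6 and 30.8 at high glucose. The lowest high glucose culture fell within the low glucose range, and the change was 0.82 ± 0.19 (adjusted p = 0.00177). KCNS3, a modifier that slows the delayed rectifiers it joins, had 176, 190, 185 and 180 at low and 127, 133, 147 and 117 at high glucose. It fell in all high glucose cultures below the low glucose range, by 0.48 ± 0.08 on the log2 scale (adjusted p = 3.8e-05).

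Two-pore and inward rectifier genes of ZR-75-30 with calls were higher at high glucose. KCNK1, which has the highest level per kb in the line, had 250, 211, 216 and 222 at low and 337, 294, 330 and 300 at high glucose. No culture overlapped. The mean was 1.4-fold higher, a change of 0.49 ± 0.07 (adjusted p = 5.8e-06). KCNJ11 had 193, 171, 170 and 152 at low and 215, 242, 247 and 201 at high glucose, so the groups were separate here, with a change of 0.40 ± 0.08 (adjusted p = 5.1e-04) that was lost in the fit on all 24 samples (adjusted p = 0.0606). KCNJ12 had 19.4, 14.8, 23.4 and 9.92 at low and 24.5, 31.7, 25.9 and 27.4 at high glucose, a change of 0.72 ± 0.23 (adjusted p = 0.0141), with the same doubt over its copy. KCNN4, at 170, 150, 154 and 136 at low and 143, 139, 159 and 120 at high glucose, overlapped and was not called, with a change of -0.12 (adjusted p = 0.283). KCNF1 was under a mean of 5 here, with 1.66, 2.27, 0.57 and 2.29 at low and 7.81, 10.1, 6.37 and 4.11 at high glucose, from 1 to 15 reads a culture.

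The largest called changes among the channel genes of the 3 lines were in HCC1500. The accessory subunit KCNE4 (ENSG00000152049, chr2:223916908-224063117 in GRCh37, plus strand), which associates with voltage-gated channels and in most pairings inhibits their current, had 161, 159, 163 and 147 at low glucose. At high glucose it had 736, 796, 888 and 749. Every high glucose culture was more than 4 times every low glucose culture. The mean was 5.03-fold higher, a log2 change of 2.32 ± 0.09 (adjusted p = 1.3e-05), and without replicate 3 the change was 2.26 ± 0.05 (adjusted p = 1.5e-16).

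Two-pore channel genes followed. KCNK5 (ENSG00000164626, chr6:39156747-39197251 in GRCh37, minus strand), an alkaline-activated background channel that takes part in cell volume control, had 13.3, 14.3, 15.3 and 16.8 at low and 56.6, 61.2, 78.7 and 58.2 at high glucose. The groups were far apart. The mean was 4.26-fold higher, a change of 2.01 ± 0.15 (adjusted p = 1.0e-04) and of 1.91 ± 0.15 without replicate 3 (adjusted p = 3.2e-09). KCNK3, an acid-inhibited background channel, had 7.98, 6.35, 5.75 and 5.17 at low and 14.7, 17.4, 33.4 and 19.8 at high glucose. Again no culture overlapped, though replicate 3 was the highest, and the change was 1.56 ± 0.26 (adjusted p = 0.00415) or 1.33 ± 0.23 without it (adjusted p = 7.3e-05). KCNK6, among the 4 highest channel genes of the line by value, had 271, 260, 249 and 288 at low and 261, 309, 398 and 309 at high glucose. These overlapped, and the change of 0.24 was not called (adjusted p = 0.229), nor was that of 0.13 without replicate 3 (adjusted p = 0.0838). KCNK2, a mechanically gated background channel, had 25.5, 19.7, 33.7 and 19.8 at low and 38.3, 49.3, 28.2 and 48.9 at high glucose, with overlap in replicate 3. It was not called with all cultures (adjusted p = 0.0672) and was called without replicate 3, with a change of 0.88 (adjusted p = 3.7e-04).

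Of the inward rectifiers of HCC1500, KCNJ14, a channel with weak rectification, had 8.74, 9.21, 4.6 and 7.75 at low and 22.4, 21.9, 46.8 and 32.8 at high glucose. Low and high glucose cultures did not overlap. The change was 1.87 ± 0.30 (adjusted p = 0.00309) and 1.65 ± 0.24 without replicate 3 (adjusted p = 1.3e-05). The annotated exons of KCNJ14 overlap others on both strands over 406 and 1003 bases, and whether reads were assigned by strand is not stated, so its reads may include those of its neighbours. KCNJ13, a low-conductance rectifier of transporting epithelia, had 36.5, 30.5, 36 and 37.9 at low and 79.1, 72.6, 52 and 63.7 at high glucose, without overlap. It rose by 0.89 ± 0.16 (adjusted p = 0.00494), and by 1.01 ± 0.12 without replicate 3 (adjusted p = 1.1e-06). It overlaps GIGYF2 and an unnamed gene over 271 bases on its own strand and 810 on the other. KCNJ3 had 374, 377, 351 and 350 at low and 224, 202, 218 and 221 at high glucose. All 4 high glucose cultures were below all 4 low glucose ones, and it fell by 0.75 ± 0.08 on the log2 scale (adjusted p = 3.8e-04), and the change without replicate 3 was -0.75 ± 0.05 (adjusted p = 5.8e-10). KCNJ11 had 124, 144, 126 and 136 at low and 94.4, 102, 176 and 81.7 at high glucose. Only replicate 3 lay above the low glucose range, the other high glucose cultures were all below it, and the change was -0.28 (adjusted p = 0.416) with and -0.51 (adjusted p = 4.8e-05) without replicate 3.

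KCNN4 in HCC1500 had 4.56, 4.45, 7.29 and 8.18 at low and 18.3, 12.9, 30.4 and 16.6 at high glucose, from 12 to 41 reads a culture. The groups did not overlap. The mean was 3.2-fold higher (limma adjusted p = 0.00836), and the log2 change without replicate 3 was 1.28 ± 0.26 (adjusted p = 3.4e-04). The other calcium-activated gene, KCNN2, of the small-conductance type, had a mean of 10.5 at low glucose, ranged from 8.46 to 14.9 at high glucose and was not called with or without replicate 3 (adjusted p = 0.835 without it).

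The voltage-gated genes of HCC1500 gave 4 calls of 14, all lower at high glucose, where 14.6% of all genes were called lower. Without replicate 3, where 42.4% of all genes were called lower, KCND1 was called higher. KCND2 (ENSG00000184408, chr7:119913229-120390391 in GRCh37, plus strand) encodes a rapidly inactivating A-type channel. It had 456, 440, 441 and 426 at low and 137, 144, 101 and 152 at high glucose. The groups were far apart, and the mean at high glucose was 0.303 of that at low glucose, a change of -1.73 ± 0.13 (adjusted p = 9.9e-05) and of -1.60 ± 0.05 without replicate 3 (adjusted p = 1.3e-14). KCND3, a second A-type channel, had 115, 114, 101 and 101 at low and 79.6, 60.7, 31.2 and 63.7 at high glucose. It fell by 0.93 ± 0.26 on the log2 scale (adjusted p = 0.0332), and its change without replicate 3 was -0.66 ± 0.10 (adjusted p = 1.5e-05). The groups did not overlap, but 9 of 17 alternatives, edgeR among them, lost the call, with adjusted p of at most 0.0916. Its exons overlap DDX20 on the other strand over 1036 bases. KCNC1 had 128, 134, 128 and 125 at low and 99.7, 104, 95.8 and 102 at high glucose, without overlap, and its change of -0.36 ± 0.09 was called (adjusted p = 0.0192) but was lost under 8 of 17 alternatives, among them edgeR (adjusted p = 0.0751) and the fit without any 1 of the low glucose cultures. Without replicate 3 the change was -0.33 ± 0.07 (adjusted p = 3.7e-04), and with the replicate block the call was lost (adjusted p = 0.0969). KCND1, the third gene of the A-type family, had 3.04, 3.49, 5.37 and 3.44 at low and 5.9, 6.96, 5.2 and 7.85 at high glucose. It was taken only through its high glucose mean of 6.48 in this line, against 3.84 at low glucose, so its difference is given as a description, 0.64 on the log2 scale with all cultures and 0.72 without replicate 3, and supports no direction. KCNC4, just inside the threshold, was taken only through its low glucose mean in this line, so its difference supports no direction either. Its log2 change of -0.77 was not called (adjusted p = 0.231), nor was that without replicate 3 (-0.81, adjusted p = 0.0856).

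**Figure D4:**
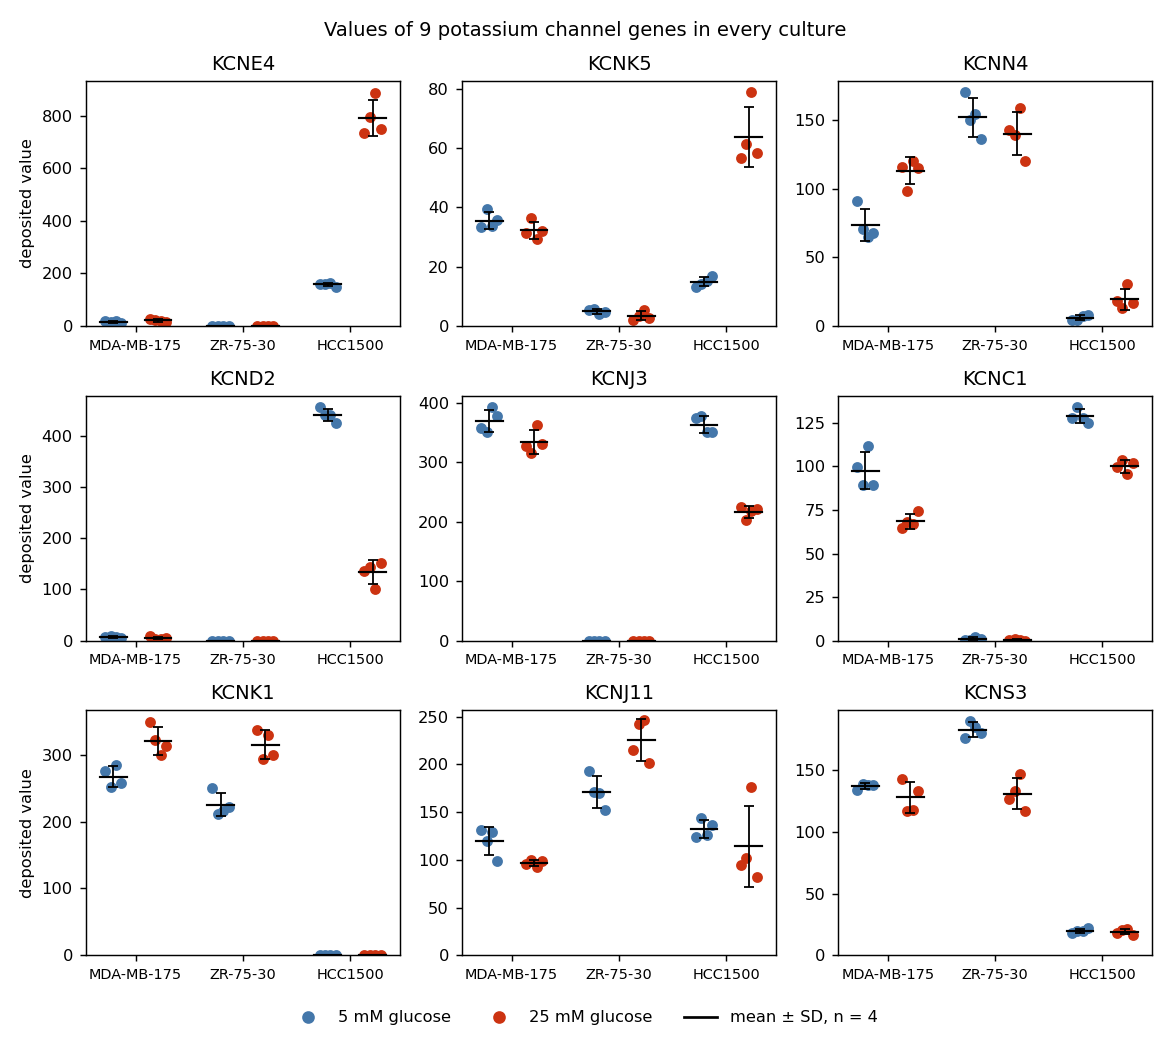
Values in every culture (points) of 9 channel genes in the 3 lines, with the mean and SD of 4 cultures (bars), low glucose at left and high glucose at right within each line. KCNE4 and KCNK5 are higher in all 4 HCC1500 high glucose cultures, KCND2, KCNJ3 and KCNC1 are lower, and KCNK1 is at 0 or 1 read in HCC1500.

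The promoters of 4 genes called in HCC1500, 2 higher and 2 lower, are shown. RefSeq promoter windows (GRCh38.p14) were found for 22 of the 33 channel genes, and for 5 of them more than 1 window. Printed are the 250 bases before the start of KCNK5, which had the largest rise among genes with a window, of KCNN4, which rose in 2 lines, and of KCND2 and KCNJ3, which fell and were among the 4 highest genes of the line. They read 5' to 3' on the strand of the gene, and capitals mark the E-box CACGTG, the core bound by MYC and by carbohydrate response factors, and the GC box GGGCGG, on either strand. KCNK5 is at chr6:39229476-39229725 (minus), KCNN4 at chr19:43780974-43781223 (minus), KCND2 at chr7:120272925-120273174 (plus) and KCNJ3 at chr2:154698445-154698694 (plus).
KCNK5 promoter: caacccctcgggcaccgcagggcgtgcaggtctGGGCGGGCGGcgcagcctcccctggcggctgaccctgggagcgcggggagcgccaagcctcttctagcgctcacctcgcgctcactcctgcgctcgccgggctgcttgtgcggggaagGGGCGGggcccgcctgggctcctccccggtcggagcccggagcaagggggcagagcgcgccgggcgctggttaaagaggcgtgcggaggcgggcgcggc
KCNN4 promoter: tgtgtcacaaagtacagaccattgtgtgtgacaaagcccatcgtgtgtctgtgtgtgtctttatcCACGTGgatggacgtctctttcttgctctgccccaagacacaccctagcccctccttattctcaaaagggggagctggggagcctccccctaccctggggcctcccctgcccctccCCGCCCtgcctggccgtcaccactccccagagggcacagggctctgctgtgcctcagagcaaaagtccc
KCND2 promoter: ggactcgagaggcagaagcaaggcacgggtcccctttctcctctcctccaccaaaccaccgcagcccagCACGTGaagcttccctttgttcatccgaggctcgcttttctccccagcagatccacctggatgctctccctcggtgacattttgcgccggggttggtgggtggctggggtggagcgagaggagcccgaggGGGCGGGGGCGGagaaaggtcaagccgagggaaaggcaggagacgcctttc
KCNJ3 promoter: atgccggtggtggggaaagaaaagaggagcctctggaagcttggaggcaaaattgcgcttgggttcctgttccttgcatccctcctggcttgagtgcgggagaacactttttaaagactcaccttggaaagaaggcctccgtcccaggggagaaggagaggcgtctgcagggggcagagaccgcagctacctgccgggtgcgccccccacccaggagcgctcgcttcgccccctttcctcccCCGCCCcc

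The E-box was found in 2 of the 30 windows of channel genes (6.7%), those of KCNN4 and KCND2, and in 6.3% of all 35116 windows of this length. KCNN4 rose in HCC1500 and KCND2 fell. The GC box was found in 20 of the 30 windows (66.7%) and in 42.6% of all windows, with 3 copies before KCNK5, some overlapping, 2 before KCND2 and 1 each before KCNN4 and KCNJ3. TATAAA was found in 4 windows (13.3%, of all windows 10.7%), and the estrogen receptor half-site AGGTCA in 2 (6.7%, of all windows 12.1%), those of KCND2 and KCNJ14. Each is a match of letters and not a shown binding site.

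Without replicate 3, 14 of the 26 channel genes of HCC1500 were called, 8 higher (23.3% of all genes) and 6 lower (42.4%), where 65.7% of all genes were called. All 11 channel genes called with every culture were called without it, with the same sign, and 3 more were called only then, KCND1, KCNJ11 and KCNK2. KCND1 was taken only through its high glucose mean in this line, so its place among the 8 higher supports no direction. Replicate 3 had the highest of the 4 high glucose values in 13 and the lowest in 9 of the 26 genes. For 4 genes it was more than 1 log2 unit away from the average of the remaining cultures. KCNF1 was at 61.6 against 12.9 to 20.1, KCNK15 at 40.1 against 12.9 to 14.7, KCND3 at 31.2 against 60.7 to 79.6 and KCNH1 at 3.71 against 18.5 to 23.9. KCNF1, KCNK15 and KCNH1 were not called with or without it.

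**Figure D5:**
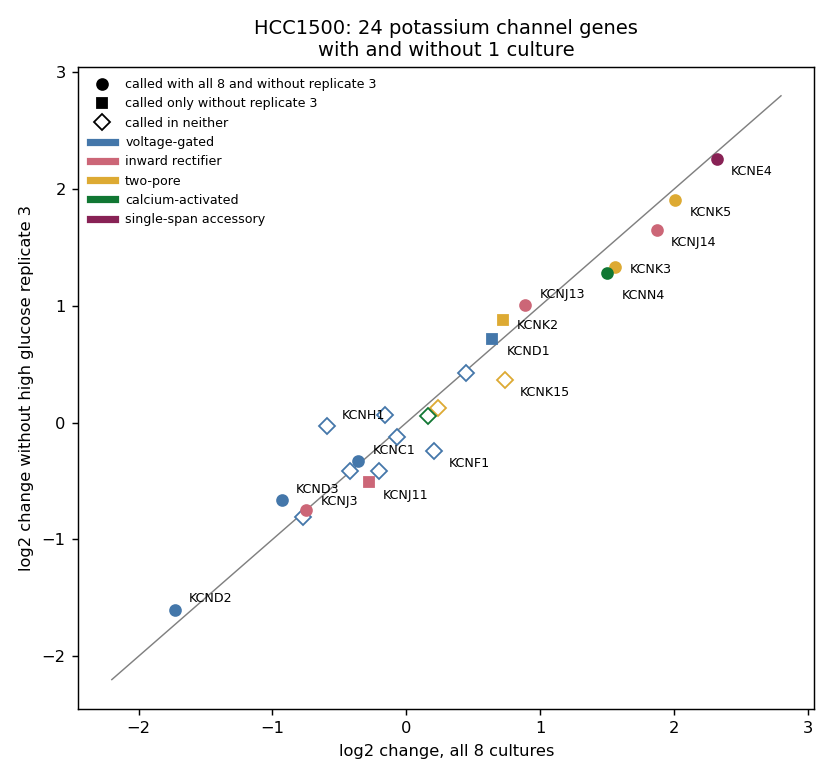
Log2 glucose change of 24 channel genes in HCC1500 fitted on all 8 cultures (horizontal axis) and without high glucose replicate 3 (vertical axis), with the line of equality. The genes called with all cultures (circles) lie close to the line, from KCND2 at -1.73 and -1.60 to KCNE4 at 2.32 and 2.26.

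The last question was whether the response to glucose differed between lines. A model of all 24 cultures tested the difference of the changes. It was called for 14 of the 28 channel genes with a mean of at least 5 over the 24 cultures, where 33.7% of all genes with that mean were called, and for 14 without HCC1500 high glucose replicate 3. For KCNJ3, KCND2, KCNG1 and KCNJ12, among these 14, 1 line was at 0 in all its cultures and entered with no change and no spread. The KCNJ12 changes in MDA-MB-175 and ZR-75-30, the lines that express it, were not called different (0.49, adjusted p = 0.409). Without that culture the F test adjusted p was 1.3e-07 for KCNK5, 3.3e-06 for KCNE4, 1.5e-05 for KCNK3 and 3.0e-05 for KCNJ3, and 6.8e-05 for KCNN4 and 1.0e-05 for KCNJ11. The smallest p was that of KCNK5, whose change was 2.01 in HCC1500, -0.14 in MDA-MB-175 and -0.47 in ZR-75-30 (F test adjusted p = 2.3e-07). The change in MDA-MB-175 minus that in HCC1500 was -2.15 ± 0.25 (adjusted p = 2.5e-06). The change of KCNE4 was 2.32, 0.41 and -0.13 in the same order (F test adjusted p = 4.6e-06), although its ZR-75-30 values were all under 3 reads' worth. KCNK3 changed by -1.10 in MDA-MB-175 and 1.56 in HCC1500 (F test adjusted p = 2.6e-05), and the difference of these, -2.67 ± 0.36, was called (adjusted p = 1.4e-05). Its mean over the 24 cultures, 6.36, passed 5 only through HCC1500 high glucose, with a mean of 21.4. In MDA-MB-175 its mean of 4.9 was under the cut used for calls, so opposite directions are given as a description only. The log2 change of KCNJ3 was -0.14 in MDA-MB-175 and -0.75 in HCC1500, a difference of 0.60 ± 0.11 (adjusted p = 3.8e-04). Its ZR-75-30 cultures were all at 0 and hold no response.

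KCNJ11 was called in opposite directions in the single-line fits, lower in MDA-MB-175 and higher in ZR-75-30, and in neither line in the model of all 24 cultures. The difference between these lines was -0.70 ± 0.22 (adjusted p = 0.0425). The rise of KCNN4 was larger in HCC1500 than in MDA-MB-175, with a difference of MDA-MB-175 minus HCC1500 of -0.89 ± 0.28 (adjusted p = 0.0303), and between MDA-MB-175 and ZR-75-30 the difference of 0.74 was not called (adjusted p = 0.0969). KCNK1 was called as higher in the single-line fits of both lines that express it, although the MDA-MB-175 change was not called in this model of 24 cultures (adjusted p = 0.17), and the difference of -0.23 was not called (adjusted p = 0.462). No channel gene was called with the same sign in all 3 lines by limma, edgeR or DESeq2, nor at an unadjusted limma p under 0.05. Among the 5 genes called with the same sign in 2 lines were KCNC1 (lower in MDA-MB-175 and HCC1500), KCNN4 (higher in these), and KCNJ12 and KCNK1 (higher in MDA-MB-175 and ZR-75-30). With edgeR there were 4, without KCNC1, which was also called in neither line by the fit on all 24 samples (adjusted p = 0.0974 in MDA-MB-175 and 0.158 in HCC1500).

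Partners of the channels that the name pattern leaves out were taken from a list of 52 symbols, of which 46 were in the table. Of those with a mean of at least 5 in the line, 2 were higher and 5 lower of 30 in HCC1500 (7 and 14 without replicate 3), 7 and 9 of 35 in MDA-MB-175 and 10 and 7 of 27 in ZR-75-30. Of all genes with that mean in HCC1500, 8.17% were called higher and 14.6% lower (23.3% and 42.4% without replicate 3). These shares were 13.7% and 16.2% in MDA-MB-175, and 26.4% and 27.1% in ZR-75-30. KCNMA1, the pore of the large-conductance calcium- and voltage-activated (BK) channel, was lower in all 3 lines. Its means were 90.1 ± 10.2 (SD, n = 4) at low and 66.4 ± 4.89 at high glucose in MDA-MB-175, 324 ± 14.6 and 177 ± 7.41 in ZR-75-30, and those in HCC1500 were 122 ± 0.898 and 46.8 ± 10.2. High and low glucose cultures did not overlap in any line. The changes were -0.43 (adjusted p = 0.00496), -0.87 (adjusted p = 7.8e-10) and -1.39 (adjusted p = 7.5e-04), and in HCC1500 without replicate 3 the change was -1.24 (adjusted p = 8.0e-10). CALM3, 1 of 3 genes for calmodulin, the calcium sensor of KCNN channels, was also lower in all 3 lines, with changes of -0.48 in HCC1500 (adjusted p = 0.0416, without replicate 3 -0.63 with 2.7e-12), -0.25 in MDA-MB-175 and -0.31 in ZR-75-30.

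The other partners with a called change of at least 1 log2 unit were few. ABCC8, the sulfonylurea receptor that assembles with the KCNJ11 pore, had means of 76.6 ± 2.94 (SD, n = 4) at low and 23.9 ± 4.02 at high glucose in HCC1500. It fell by 1.65 on the log2 scale (adjusted p = 1.6e-04, without replicate 3 a change of -1.74 with 6.2e-10), and its changes of -0.55 in MDA-MB-175 and 0.62 in ZR-75-30 were not called. TRPV6, a calcium-selective entry channel, fell by 1.27 in HCC1500 (adjusted p = 0.00116, without replicate 3 a change of -1.38 with 4.6e-08). SLC12A2, the sodium-potassium-chloride cotransporter, fell by 1.33 in ZR-75-30 (adjusted p = 2.9e-14) and by 0.54 in MDA-MB-175 (adjusted p = 6.9e-07). In HCC1500 its change of -0.54 was not called (adjusted p = 0.0711), while that of -0.33 without replicate 3 was (adjusted p = 6.0e-08). SLC12A1, its renal relative, fell by 1.02 in MDA-MB-175 from a mean of 17.2 to 7.95. LRRC26, an auxiliary subunit of the BK channel, fell by 1.16 in MDA-MB-175 from 8.05 to 2.76 (limma adjusted p = 0.0219). Its low glucose range of 3.56 to 14.1 overlapped the high glucose range of 1.7 to 3.68. It passed the mean of 5 only through its low glucose cultures, so this fall supports no direction. TMEM38A, a cation channel of the endoplasmic reticulum, rose by 1.25 in ZR-75-30 (adjusted p = 3.7e-07) and by 0.57 in MDA-MB-175 (adjusted p = 0.00238). In HCC1500 its change of 0.57 was not called (adjusted p = 0.0711), while that of 0.36 without replicate 3 was (adjusted p = 3.8e-05). SGK1, a kinase that raises the surface level of channels, rose by 1.54 in ZR-75-30 and by 1.16 in HCC1500 (1.19 without replicate 3). In HCC1500 the SGK1 mean went from 3.31 to 9.01. It passed the mean of 5 there only through its high glucose cultures, so that rise supports no direction.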

How the data were processed

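RNA from 24 cultures was sequenced and a table of 18889 genes by 24 cultures was deposited. The deposited values are a signal in normalized form and not counts. Each is a whole number of reads times 1 factor that the authors applied per sample, whole to within 0.01 of a read for 100.00% of values in each sample, and the factor is not named. For tumor RNA the authors' methods give Trimmomatic, TopHat to hg19 with Ensembl genes, and edgeR, and the submitters' processing notes for these samples name hg38 and edgeR, so the build behind this table is not settled. In 9 lines of the table a split symbol shifted the cells, so the last 24 cells of every line were taken as the values.

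Groups, replicate numbers and glucose came from the sample titles. The log2(value + 1) of the 8 cultures of each line was fitted in limma 3.58.1 (R 4.3.3) with a trended prior, on genes with at least 0.5 in at least 4 cultures, with no covariate, and p-values were Benjamini-Hochberg adjusted over all genes tested. A fit of all 24 cultures with 6 group means gave the F test between lines, and a fit of the 12 low glucose cultures compared the lines. The pipeline was tested on simulated data. Alternatives were pseudocounts of 0.5 and 5, no filter, median-of-ratios scaling, CPM scaling to equal totals, edgeR 4.0.16 and DESeq2 1.42.0 on the recovered reads, a fit on all 24 samples, a replicate block and leaving out each culture. On the recovered reads, among genes with a mean of at least 5, edgeR called 1615 genes higher and 1802 lower in HCC1500. For MDA-MB-175 these were 2269 and 2015, and for ZR-75-30 they were 3467 and 3631.

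The members and the gene lists were chosen with earlier results of these data known. Full values are given for called genes without overlap (up to the 6 largest changes per line), the 4 highest channel genes of each line by deposited value, the 4 smallest p between lines, genes called alike in 3 lines, and the 2 genes on each side of the threshold. Other channel genes given with values in a line (such as KCNF1 in MDA-MB-175, KCNG1 and KCNF1 in ZR-75-30 and KCNC1, KCND1, KCND3, KCNJ11, KCNJ13 and KCNK2 in HCC1500) were added after their values were seen, as were the motifs and promoters. Of partner genes, those called in all 3 lines or with a called change of at least 1 log2 unit are named. Some of the 33 genes are counted but not reported here by name. Coordinates and exon lengths are from GENCODE release 44 on GRCh37, matched by gene ID for all 33 genes, and promoters are from RefSeq on GRCh38.p14, with no coordinates converted.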

Additional observations from a re-analysis of the deposited data

Results flagged for a closer look

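Among 122 groups of 4 cultures with a mean of at least 5, 7 had 1 culture far from the other 3 by Dixon's test, which chance alone gives in about 1 of 20 groups. Of these, 2 were in HCC1500 high glucose replicate 3, KCNF1 at 61.6 against 12.9 to 20.1 in the other 3 and KCNK15 at 40.1 against 12.9 to 14.7. KCNF1 also stood at 25.4 in HCC1500 low glucose replicate 2, against 18.2 to 18.9. KCNQ3 was at 6.84 in HCC1500 low glucose replicate 1, against 4.99 to 5.17. In MDA-MB-175 high glucose replicate 1, KCND2 was at 8.32, against 3.9 to 4.21. KCNG1 was at 30.8 in ZR-75-30 high glucose replicate 4, against 44.8 to 47.6.

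The glucose response differed between the 3 lines for 14 genes by the F test on all 24 cultures. The adjusted p was 2.3e-07 for KCNK5, 4.6e-06 for KCNE4, 2.6e-05 for KCNK3, 3.2e-05 for KCNJ3, 8.1e-05 for KCND2, 1.2e-04 for KCNH2 and 4.2e-04 for KCNN4. It was 0.00448 for KCNG1, 0.0121 for KCNF1, 0.018 for KCNJ12, 0.0245 for KCNJ11, 0.0313 for KCNS3 and 0.0417 for KCNJ13. For KCNJ3 and KCND2 the ZR-75-30 cultures, and for KCNG1 and KCNJ12 the HCC1500 cultures, were all at 0, so that these lines entered with no change and no spread. The call of KCNJ12 rests on the line at 0, since its changes in MDA-MB-175 and ZR-75-30 were not called different (0.49, adjusted p = 0.409). KCNK3 passed the mean of 5 over the 24 cultures only through HCC1500 high glucose, and KCNJ13 only through HCC1500.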

How the results depend on the processing

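The number of channel genes called in MDA-MB-175 was 2 of 23, both higher, in place of 6 when all 24 samples shared 1 estimate of the spread. It was 6 under each other alternative that kept all cultures, except 7 with the replicate block. In ZR-75-30 the number ran from 5 to 7, and in HCC1500 from 9 (edgeR, median-of-ratios scaling) to 14 (DESeq2). In HCC1500 the split of higher and lower was 6 to 5, and 6 to 3 with edgeR and with median-of-ratios scaling, 6 to 4 with CPM scaling and 9 to 5 with DESeq2, while these scalings moved the median of all genes by at most 0.09. Over all genes there, higher calls were 35.9% and went to 49.0% with median-of-ratios scaling, 47.3% with edgeR and 51.9% with DESeq2. Leaving out 1 culture gave 5 to 7 in MDA-MB-175, 6 to 7 in ZR-75-30, 9 to 14 in HCC1500, 12 to 15 for the response between lines and 26 in each case at low glucose.

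None of the 23 called changes reversed under any alternative. The call was lost for 6 with the fit on all 24 samples, for 2 with edgeR, for 2 with median-of-ratios scaling, for 1 with CPM scaling, for 1 with the replicate block (KCNC1 in HCC1500, adjusted p = 0.0969) and in 15 of 184 fits without 1 culture, of KCNC1 and KCND3 in HCC1500 and KCNJ11 in MDA-MB-175. Same-numbered cultures were not shown to be paired, with correlations of their deviations between -0.04 and 0.11, and the replicate block gave 10 called genes in HCC1500, 7 in MDA-MB-175 and 6 in ZR-75-30, 12 between lines and 26 at low glucose. Genes under about 3 reads, here up to 2.29, are at the limit of the depth.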
